A study of Mus musculus with 30 samples.

Results

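Cxcl1, Cxcl2, Cxcl3 and Cxcl5 were followed in mouse dendritic cells before and after lipopolysaccharide (LPS). Control cells were set beside cells with a conditional knockout (KO) of the transcription factor Irf4. The 4 genes were chosen by name as CXC chemokines that attract neutrophils, and they are 4 of 16358 genes with a named probe and 4 of the 11258 genes tested. Each had 1 probe, named through its transcript, and all 4 passed the filter on dim probes. The cells were bone marrow-derived dendritic cells of C57BL/6 background, grown in culture and taken as CD11c-positive cells on magnetic beads after the treatment. The KO cells came from CD11c-Cre IRF-4 flox/flox mice, and the control cells from mice with CD11c-Cre alone, so both genotypes carried the Cre transgene. KO cells were left unstimulated or given LPS for 6 or 24 h, and control cells were treated in the same 3 ways, with 5 biological replicates in each of the 6 groups. Cre driven by the CD11c promoter acts only in cells that switch this promoter on, and cultures of this kind also hold macrophage-like cells and granulocytes. The sources used here name neither the dose of LPS nor the age of the mice, and they do not say whether a replicate was a mouse or a culture. A p-value here therefore reflects only how far these samples scatter, which may be technical.

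The 4 genes encode small secreted proteins of the CXC family whose first cysteines follow a glutamate-leucine-arginine motif. In the mouse they bind the receptor Cxcr2 on neutrophils and draw these cells from blood into inflamed tissue. Cxcl1 is also called KC, Cxcl2 is also called MIP-2, and Cxcl5 is also called LIX. LPS, a cell wall component of Gram-negative bacteria, is sensed by Tlr4 with Ly96 and Cd14, and the signal passes through Myd88 and Ticam1 to the NF-kB factors, which bind kB sites in the promoters of such genes. Their messages are short-lived, and proteins such as Zc3h12a and Zfp36 speed their decay. Irf4 binds DNA mostly together with partners of the ETS or AP-1 families.

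The genes lie in 1 cluster on mouse chromosome 5, where the RefSeq table lists Cxcl5, Ppbp, Pf4, Cxcl3, Cxcl15, Cxcl1 and Cxcl2 in this order. The promoter table used held no entry for Cxcl5, so its promoter was not searched. The bases just before the start sites of Cxcl1, Cxcl2 and Cxcl3 are shown. They are 120 bases each from the RefSeq promoter table (build GRCm38.p6, plus strand), and capitals mark the match to the kB motif.
Cxcl1, chr5:90891125-90891244: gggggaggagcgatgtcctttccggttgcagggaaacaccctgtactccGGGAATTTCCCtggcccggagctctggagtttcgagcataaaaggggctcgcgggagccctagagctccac
Cxcl2, chr5:90903779-90903898: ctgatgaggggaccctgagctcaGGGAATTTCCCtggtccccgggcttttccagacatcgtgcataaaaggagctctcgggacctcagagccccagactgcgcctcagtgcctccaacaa
Cxcl3, chr5:90785981-90786100: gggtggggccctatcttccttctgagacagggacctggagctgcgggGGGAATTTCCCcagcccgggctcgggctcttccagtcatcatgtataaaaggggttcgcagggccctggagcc
The same bases, GGGAATTTCCC, matched in all 3 promoters, once on each strand with an overlap of all but the outermost base. On the plus strand the match began 71 bases before the start site in Cxcl1, 97 bases before it in Cxcl2 and 73 bases before it in Cxcl3. The windows searched ran from 250 bases before to 50 bases after the start site, and the kB motif was found on either strand in 8.46% of 32851 such windows. The AP-1 motif TGANTCA (7.81% of windows), the IRF motif GAAANNGAAA (3.44% of windows) and the ETS-IRF composite GGAANNGAAA (2.72% of windows) had no match on either strand in these 3 windows. A match or its absence describes these letters in this window and nothing more.

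RNA of each sample was labelled with Cy5 and hybridised together with a Cy3-labelled pooled mouse reference RNA on 30 Agilent 2-colour arrays. The level of a gene is given as the log2 ratio of sample over reference, so a level of 0 equals the reference, and levels are not set against each other between genes. The median Cy5 intensity was 101 to 151 per array, 18465 to 27230 of 41174 probes were well above background in Cy5, and 0 probes were saturated in Cy5. Arrays give no counts, and their number limits the precision. Irf4 was lower in KO cells at each time, with a log2 difference from control (± SE) of -2.90 ± 0.27 in unstimulated cells, -2.42 ± 0.27 after LPS for 6 h and -2.17 ± 0.27 after 24 h (limma, adjusted p = 3.61e-08, 8.83e-07 and 2.7e-06), with no overlap between genotypes. The Irf4 probe was still well above background on 4, 5 and 5 of 5 KO arrays at 0, 6 and 24 h. In KO cells its signal rose with LPS by 1.38 ± 0.27 at 6 h and 1.46 ± 0.27 at 24 h (limma, adjusted p = 0.000319 and 0.000302). In control cells it rose by 0.90 ± 0.27 and 0.73 ± 0.27 (adjusted p = 0.0272 and 0.0712). The sources do not say whether its probe lies within the floxed stretch. Itgax, which encodes CD11c, averaged 3.98 to 4.41 on the log2 scale in the 6 groups and was well above background on all 30 arrays. In such bulk RNA, fewer cells of a type and less RNA per cell cannot be told apart.

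Replicate 3 of control LPS 6 h and replicate 2 of control LPS 24 h stood apart. The slope of an array's LPS response on the mean KO response was -0.0373 and 0.139 on these arrays, over 1095 and 724 genes that LPS changed in KO cells by at least 1 on the log2 scale, and 0.623 to 0.855 on the other 8 control LPS arrays. Both kept a high Irf4 level, 2.13 and 2.68. They shared slide 9 with each other and with no other array. The members' results are given with all 30 arrays and, where those arrays touch them, with the 28 others. The 30 arrays lay on 9 slides, and KO and control arrays of the same treatment never shared one.

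Cxcl1 rose strongly with LPS in both genotypes. Its level was -4.19, -4.77, -3.92, -4.14 and -3.99 in unstimulated KO cells, 3.15, 3.26, 3.75, 3.01 and 2.83 after LPS for 6 h, and 1.71, 1.84, 2.34, 0.75 and 0.80 after 24 h. In control cells it was -4.32, -4.58, -4.29, -4.11 and -3.50 unstimulated, 0.37, 0.11, -4.73, 0.90 and 1.31 at 6 h, and -1.11, -4.74, -2.62, 1.12 and 0.78 at 24 h. Every KO array at 6 h lay above every control array at 6 h, whereas at 24 h control replicates 4 and 5 lay within the KO range. The third control value at 6 h and the second at 24 h are the arrays that stood apart, and both lay below all unstimulated control values.

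Cxcl2 had the same shape. It measured 1.29, 0.17, -0.14, 0.25 and 1.47 in unstimulated KO cells, 6.06, 6.78, 7.12, 7.31 and 7.15 at 6 h, and 5.66, 5.76, 6.01, 5.77 and 5.73 at 24 h. The control values were -0.07, -0.23, -0.08, 0.36 and 0.09 unstimulated, 4.05, 3.47, 0.11, 5.09 and 5.91 at 6 h, and 3.09, 0.18, 2.04, 5.51 and 5.33 at 24 h. KO arrays lay above control arrays without overlap at both LPS times, by a narrow margin against the highest control array. Its probe was well above background on 2 of 5 unstimulated KO arrays and 1 of 5 unstimulated control arrays, so its unstimulated level lies near the limit of measurement.

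Cxcl3 was well above background before LPS, on all 10 unstimulated arrays, and rose with LPS in both genotypes. Unstimulated KO cells had 2.31, 1.08, 0.88, 2.09 and 2.85, KO cells at 6 h had 8.22, 8.18, 8.29, 8.11 and 8.19, and KO cells at 24 h had 8.26, 8.49, 8.28, 8.25 and 8.02. Unstimulated control cells had 2.37, 0.85, 1.34, 3.44 and 2.75, control cells at 6 h had 6.62, 6.53, 3.82, 6.72 and 7.48, and control cells at 24 h had 6.97, 3.46, 6.36, 7.80 and 7.79. The LPS-treated KO arrays were tightly packed, with an SD of 0.065 at 6 h and 0.17 at 24 h, against 1.40 and 1.79 in control cells (n = 5 each). Without the arrays that stood apart, the control SD was 0.44 at 6 h and 0.70 at 24 h (n = 4 each).

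Cxcl5 was measured above background only after LPS. Its level was -3.92, -3.65, -3.61, -3.25 and -3.34 in unstimulated KO cells, -2.58, -2.38, -2.20, -2.01 and -2.21 at 6 h, and -1.44, -1.41, -1.42, 0.31 and -0.12 at 24 h. It was -3.50, -3.52, -3.43, -3.16 and -3.47 in unstimulated control cells, -1.51, -1.52, -3.98, -1.74 and -1.45 at 6 h, and -0.57, -3.97, -1.11, -0.18 and 0.36 at 24 h. Apart from the array that stood apart, all control values at 6 h lay above all KO values at 6 h. The probe was not well above background on any of the 10 unstimulated arrays nor on the 2 arrays that stood apart, so its unstimulated level is only an upper bound.

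**Figure D1:**
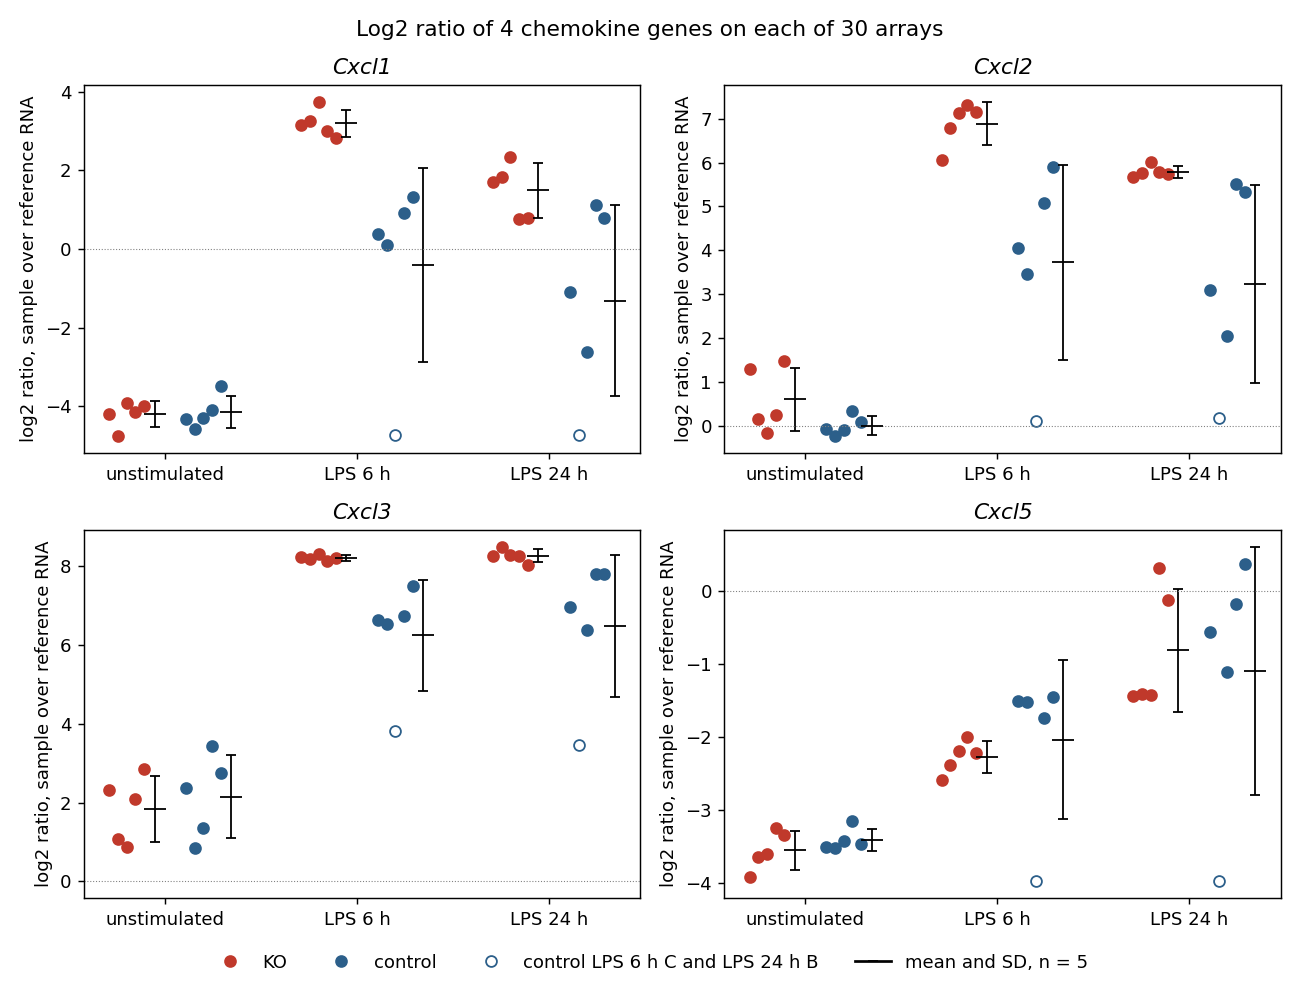
Log2 ratio of sample over reference RNA for Cxcl1, Cxcl2, Cxcl3 and Cxcl5 on each array (1 point per array, KO red and left, control blue and right, at 0, 6 and 24 h of LPS), with the mean and SD of 5 arrays in black. The open points are the control LPS arrays that stood apart, which lie at the unstimulated level for Cxcl1 (-4.73 and -4.74) and Cxcl2 (0.11 and 0.18), while the KO points at 6 h lie above all control points in the first 3 panels.

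In KO cells LPS for 6 h raised 3 of 4 members (14.2% of all tested genes were called higher). Cxcl1 rose by 7.40 ± 0.88 on the log2 scale, 169-fold, Cxcl2 by 6.28 ± 0.81, 77.5-fold from a baseline above background on 2 of 5 arrays, and Cxcl3 by 6.36 ± 0.65, 82.0-fold (log2 difference ± SE, limma, adjusted p = 9.01e-07, 2.22e-06 and 1.29e-07). The 5 arrays of each group did not overlap in Cxcl5, which was not counted over all tested genes. Cxcl5 had a difference of 1.28 ± 0.54 that missed the threshold (adjusted p = 0.0847). It was called with 28 arrays (adjusted p = 0.00087, 4 of 4 members against 17.2% of genes) and in the fit that takes the replicate number as a block, at an adjusted p of 0.0388. In brightness it was at least 2.21-fold that of the unstimulated arrays. Each of these was taken at its own brightness or that of the dimmest probe above background, whichever was higher.

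At 24 h all 4 members were higher in LPS-treated than in unstimulated KO cells (10.3% of genes). The log2 differences were 5.69 ± 0.88 for Cxcl1, 5.18 ± 0.81 for Cxcl2, 6.42 ± 0.65 for Cxcl3 and 2.74 ± 0.54 for Cxcl5 (limma, adjusted p = 4.54e-05, 5.14e-05, 2.03e-07 and 0.000724). No array of 1 group overlapped the other in any of them, which was not counted over all tested genes and adds no support. The brightness of Cxcl5 was at least 5.97-fold that of the unstimulated arrays, taken in the same way.

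Control cells responded in the same direction with wider scatter. At 6 h 3 of 4 members were called higher (7.15% of genes), Cxcl1 by 3.75 ± 0.88, Cxcl2 by 3.71 ± 0.81 and Cxcl3 by 4.08 ± 0.65 on the log2 scale (adjusted p = 0.00558, 0.00334 and 0.000409). Cxcl5 differed by 1.38 ± 0.54 (adjusted p = 0.104). With 28 arrays all 4 were called (14.1% of genes), at 4.83 ± 0.50, 4.62 ± 0.54, 4.69 ± 0.42 and 1.86 ± 0.29 for Cxcl1, Cxcl2, Cxcl3 and Cxcl5 (adjusted p = 5.84e-08, 3.96e-07, 5.07e-09 and 3.05e-05). The groups overlapped in Cxcl1, Cxcl2 and Cxcl5 with 30 arrays and in none of the 4 with 28, which was not counted over all tested genes.

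At 24 h all 4 members were called higher in control cells (7.22% of genes, and 11.3% with 28 arrays). The log2 differences were 2.85 ± 0.88, 3.22 ± 0.81, 4.33 ± 0.65 and 2.32 ± 0.54 for Cxcl1, Cxcl2, Cxcl3 and Cxcl5 (adjusted p = 0.0325, 0.00952, 0.000116 and 0.00596). They were 3.70 ± 0.50, 3.98 ± 0.54, 5.08 ± 0.42 and 3.04 ± 0.29 with 28 arrays. With the fixed slide block Cxcl2 stood at 1.66 ± 0.80 and was not called (adjusted p = 0.102). With 30 arrays the mean brightness of Cxcl5 was 2.61-fold its own brightness on the unstimulated arrays at 6 h and 5.33-fold at 24 h. These are not lower bounds, since each LPS mean holds 1 array where the probe was not well above background. With 28 arrays the brightness was at least 3.64-fold and 8.96-fold. Of 5 arrays in each control LPS group, 4 measured it above background. The call of Cxcl1 at 24 h was the least secure, being lost when control LPS replicate 1, 4 or 5 or unstimulated control replicate 1, 2, 3 or 4 was left out (2.24 to 2.86, adjusted p up to 0.106).

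Within single slides the direction of the 6 h response held. On slide 3, with 1 KO LPS 6 h array and 3 unstimulated KO arrays, Cxcl1 differed by 7.17, Cxcl2 by 5.54, Cxcl3 by 6.28 and Cxcl5 by 0.81. On slide 7, with 2 control LPS 6 h and 2 unstimulated control arrays, the differences were 4.04, 3.54, 3.48 and 1.80. No slide held both LPS 24 h and unstimulated arrays of 1 genotype.

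**Figure D2:**
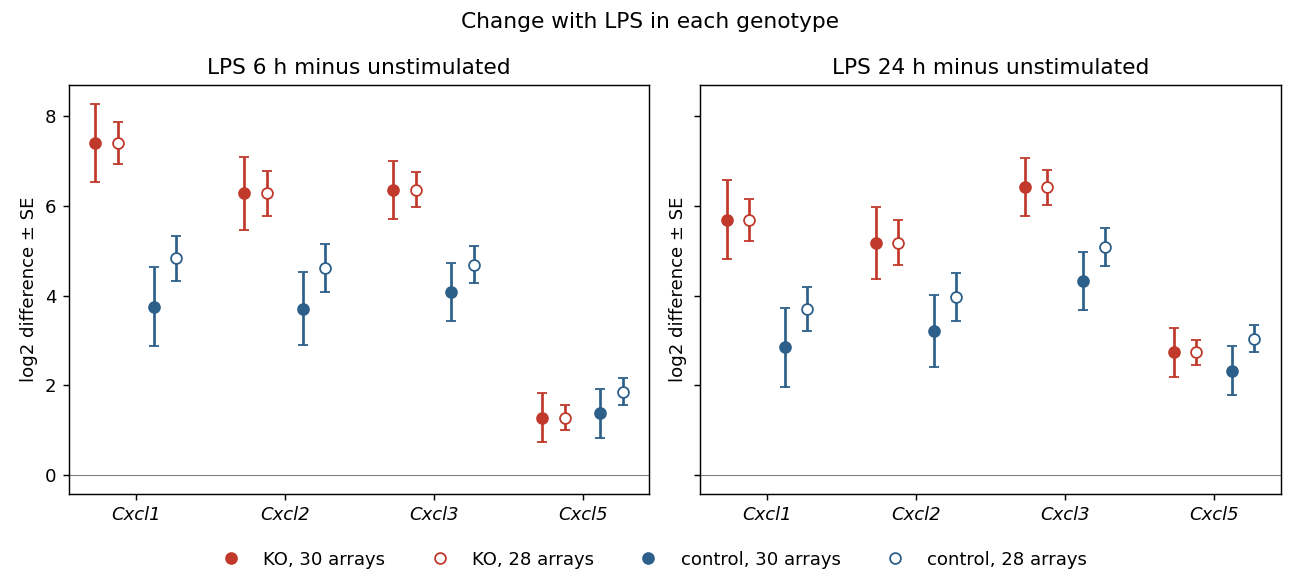
Log2 difference ± SE between LPS and unstimulated cells at 6 h (left) and 24 h (right) for each member, in KO cells (red) and control cells (blue), with all 30 arrays (filled) and with 28 arrays (open). Cxcl1, Cxcl2 and Cxcl3 lie between 5.18 and 7.40 in KO cells and between 2.85 and 5.08 in control cells. The points of Cxcl5 rest on unstimulated arrays where its probe was not well above background, so they are not ranked against the others.

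Between 6 and 24 h of LPS few changes passed the test. In KO cells none of the 4 was called with 30 arrays by limma (7.75% of genes were), with Cxcl1 at -1.71 ± 0.88 (adjusted p = 0.267, unadjusted p = 0.0624), Cxcl2 at -1.10 ± 0.81 (adjusted p = 0.485), Cxcl3 at 0.06 ± 0.65 (adjusted p = 0.975) and Cxcl5 at 1.46 ± 0.54 (adjusted p = 0.101, unadjusted p = 0.0124). With 28 arrays, which changed only the shared spread here, 2 of 4 were called (13.2% of genes). Cxcl1 fell by 1.71 ± 0.47 (adjusted p = 0.0157) and Cxcl5 rose by 1.46 ± 0.28 (adjusted p = 0.000741). The KO arrays of the 2 times did not overlap in Cxcl1, Cxcl2 and Cxcl5. Overlap was not counted over all tested genes, so this adds no support to a change. With the replicate number as a block, in a comparison where same-numbered arrays deviated together, Cxcl5 was called (adjusted p = 0.0397) and Cxcl1 was not (adjusted p = 0.176).

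In control cells no member was called by limma between 24 and 6 h with 30 arrays (5.48% of genes), and none had an unadjusted p under 0.05. Cxcl5 was the member with the smallest p, at 0.95 ± 0.54 (adjusted p = 0.371, unadjusted p = 0.0942), and with 28 arrays it was called at 1.18 ± 0.31 (adjusted p = 0.0156, 1 of 4 members against 9.51% of genes). Cxcl1 stood at -1.13 ± 0.53 with 28 arrays (adjusted p = 0.204). On slide 1, which held 2 control arrays of 24 h and 1 of 6 h, the differences were -3.17 for Cxcl1, -3.34 for Cxcl2, -0.81 for Cxcl3 and 0.61 for Cxcl5. That slide set replicates 1 and 3 at 24 h against replicate 5 at 6 h, so time and replicate cannot be told apart there. Replicate 5 had Cxcl1 at 1.31 at 6 h and 0.78 at 24 h, and Cxcl2 at 5.91 and 5.33, on slides 1 and 2. On slide 9, which held only the 2 arrays that stood apart, the 4 differences lay between -0.37 and 0.07.

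The central comparison asked how the KO cells differed from control cells. Before LPS no member was called (14.1% of genes were called in either direction), and Cxcl5 was not well above background in either genotype, so no difference is given for it. The log2 difference, KO minus control, was -0.04 for Cxcl1 (95% interval -1.85 to 1.76), 0.60 for Cxcl2 (-1.06 to 2.26) and -0.31 for Cxcl3 (-1.64 to 1.02). The unadjusted limma p lay between 0.466 and 0.961, and the genotypes overlapped in these 3. These intervals are wide, so a difference of about 1 on the log2 scale in either direction is within them.

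After LPS for 6 h, 3 of 4 members were higher in KO cells (6.24% of genes were called higher). Cxcl1 was 12.2-fold higher, a log2 difference of 3.61 ± 0.88, with a mean of 3.20 ± 0.35 in KO cells and -0.41 ± 2.46 in control cells (SD, n = 5 each, limma adjusted p = 0.00645). Cxcl2 was 8.94-fold higher, at 3.16 ± 0.81 (adjusted p = 0.00952), and Cxcl3 was 3.91-fold higher, at 1.97 ± 0.65 (adjusted p = 0.0461). Cxcl5 differed by -0.24 ± 0.54 (adjusted p = 0.839, 95% interval -1.36 to 0.88). In the 3 that were called, all 5 KO arrays lay above all 5 control arrays. Overlap was not counted over all tested genes, so this adds no support to the calls. The call of Cxcl3 was lost when any array but control replicate 5 was left out (adjusted p up to 0.156), while those of Cxcl1 and Cxcl2 were kept each time.

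The array that stood apart carried part of the size of these differences. With 28 arrays the same 3 members were called (6.88% of genes called higher) at smaller values with smaller errors. Cxcl1 was then 5.75-fold higher, at 2.52 ± 0.50 (adjusted p = 0.000913), Cxcl2 4.78-fold higher, at 2.26 ± 0.54 (adjusted p = 0.00472), and Cxcl3 2.57-fold higher, at 1.36 ± 0.42 (adjusted p = 0.0277). Cxcl5 stood on the other side, at -0.72 ± 0.29, with all 5 KO arrays below all 4 control arrays and an unadjusted p of 0.0214 that did not pass adjustment by limma (adjusted p = 0.108).

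At 24 h, 2 of 4 members were higher in KO cells (6.97% of genes, and 6.32% with 28 arrays). Cxcl1 was 6.97-fold higher, at 2.80 ± 0.88 (adjusted p = 0.0291), and Cxcl2 5.89-fold higher, at 2.56 ± 0.81 (adjusted p = 0.0303), while Cxcl3 stood at 1.78 ± 0.65 (adjusted p = 0.0635) and Cxcl5 at 0.28 ± 0.54 (adjusted p = 0.805). With 28 arrays Cxcl1 was at 1.95 ± 0.50 (adjusted p = 0.00875), Cxcl2 at 1.79 ± 0.54 (adjusted p = 0.0234), Cxcl3 at 1.03 ± 0.42 (adjusted p = 0.105) and Cxcl5 at -0.44 ± 0.29 (adjusted p = 0.376). The genotypes did not overlap in Cxcl2 and Cxcl3 and overlapped in Cxcl1 and Cxcl5, a description without a share over all tested genes. Leaving out KO replicate 1, 2 or 3, or control replicate 2 or 3, took both calls away, and leaving out control replicate 1 took away 1 of them.

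The 24 h difference was carried by part of the control arrays. Control replicates 1 and 3 had Cxcl1 at -1.11 and -2.62 and Cxcl2 at 3.09 and 2.04, whereas control replicates 4 and 5 had Cxcl1 at 1.12 and 0.78 and Cxcl2 at 5.51 and 5.33. The KO arrays of the same time spanned 0.75 to 2.34 for Cxcl1 and 5.66 to 6.01 for Cxcl2, so control replicates 4 and 5 lay within that span for Cxcl1 and just below it for Cxcl2. Control replicates 1 and 3 were hybridised on slide 1, and replicates 4 and 5 on slide 2. Among these control arrays replicate and slide cannot be told apart. On slide 5, KO LPS 24 h replicate 4 had Cxcl1 at 0.75, against 1.71, 1.84 and 2.34 in replicates 1, 2 and 3. KO replicate 5, on slide 6, had 0.80. Cxcl2 showed no such split in the KO arrays, with 5.77 in replicate 4 and 5.73 in replicate 5. The part of replicate and of slide was not tested.

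Slide bears on the genotype comparison because no slide held KO and control arrays of 1 treatment. With slide as a fixed block, KO and control are linked only through slides that held unlike treatments, and the 6 h differences became -0.07 ± 1.05 for Cxcl1, -1.03 ± 1.05 for Cxcl2, -0.44 ± 0.88 for Cxcl3 and -2.71 ± 0.71 for Cxcl5, of which only Cxcl5 was called, as lower in KO cells (adjusted p = 0.0336). In the same fit the unstimulated differences were -3.20 ± 0.99, -3.03 ± 0.99 and -3.24 ± 0.83 for Cxcl1, Cxcl2 and Cxcl3. None is given for Cxcl5, whose probe was not well above background there in either genotype. The 24 h differences were 2.96 ± 1.05, 4.20 ± 1.05, 3.64 ± 0.88 and 1.21 ± 0.71 for Cxcl1, Cxcl2, Cxcl3 and Cxcl5. Such a fit rests on few arrays: slide 6 ties 1 KO LPS 24 h array to 3 unstimulated control arrays, and slide 2 ties 2 unstimulated KO arrays to 2 control LPS 24 h arrays. In that fit Irf4 kept its sign and was called lower in unstimulated KO cells (-2.18, adjusted p = 0.0268) and at 24 h (-2.42, adjusted p = 0.024), and it was not called at 6 h (-1.96, adjusted p = 0.0907). With the fixed block and 28 arrays, 2 members were called lower in KO cells at 6 h, Cxcl2 at -2.48 ± 0.82 and Cxcl5 at -2.45 ± 0.79 (adjusted p = 0.0306 and 0.0277), and Cxcl1 stood at -1.43 ± 0.88 (adjusted p = 0.194). With slide as a random block (correlation within a slide of 0.103), Cxcl1 and Cxcl2 were called at 6 h, at 3.53 ± 0.91 and 3.03 ± 0.84 (adjusted p = 0.0125 and 0.0202), and Cxcl3 was not, at 1.97 ± 0.67 (adjusted p = 0.0629). At 24 h the random block left Cxcl1 at 2.78 ± 0.92 and Cxcl2 at 2.63 ± 0.84 (adjusted p = 0.0449 and 0.0397). The sign at 6 h thus differed between the fit without slide and the fit with a fixed slide block for Cxcl1, Cxcl2 and Cxcl3, and for Cxcl2 both fits made a call once the 2 arrays were left out.

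**Figure D3:**
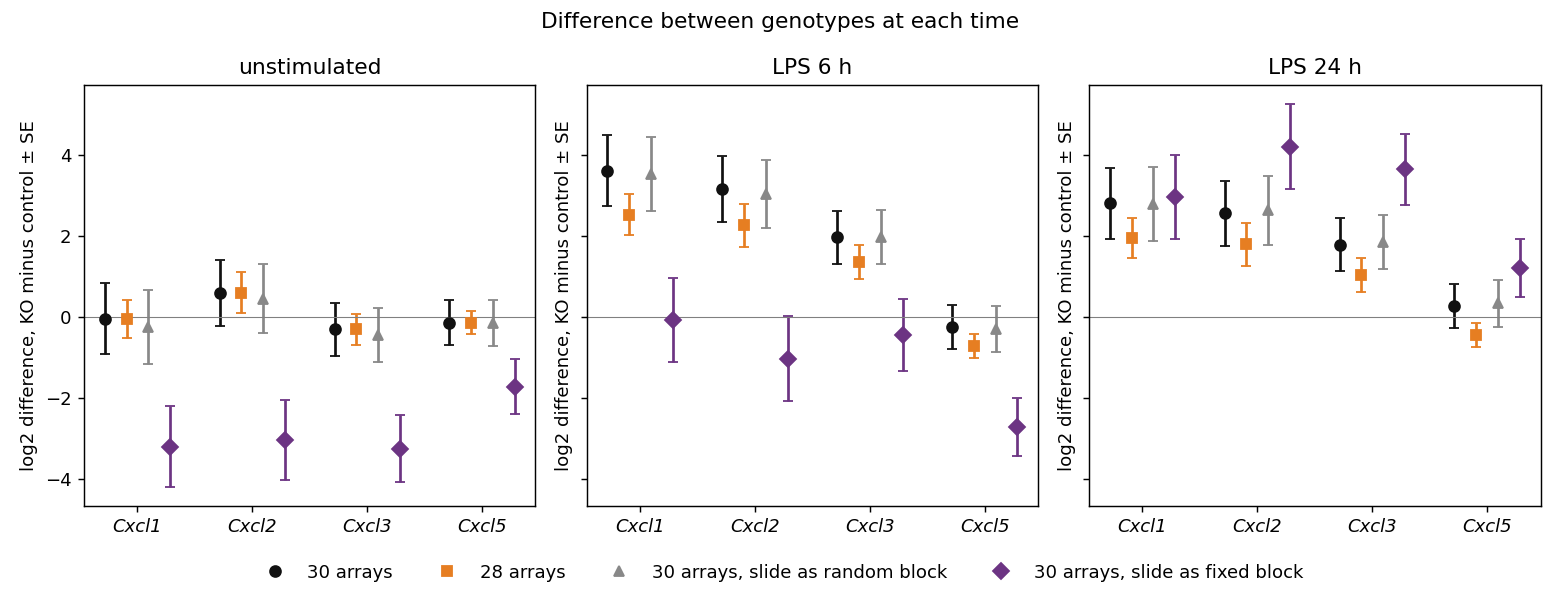
Log2 difference, KO minus control, ± SE for each member in unstimulated cells (left), after LPS for 6 h (middle) and after 24 h (right), with 30 arrays (black), 28 arrays (orange), slide as a random block (grey) and slide as a fixed block (purple). At 6 h Cxcl1 lies at 3.61, 2.52 and 3.53 in the first 3 fits and at -0.07 with the fixed slide block. The unstimulated points of Cxcl5 rest on arrays where its probe was not well above background, so they are not read as a difference.

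The size of the LPS response was then compared between genotypes in 1 test, the difference of the 2 log2 responses. By limma no member was called at 6 h (0.435% of genes, and 1.27% with 28 arrays) or at 24 h (0.879%, and 1.79% with 28 arrays). At 6 h the KO response exceeded the control response by 3.65 ± 1.24 for Cxcl1 (unadjusted p = 0.00675, adjusted p = 0.3), 2.56 ± 1.14 for Cxcl2 (adjusted p = 0.547) and 2.27 ± 0.92 for Cxcl3 (adjusted p = 0.452), and it differed by -0.10 ± 0.77 for Cxcl5 (adjusted p = 0.995). With 28 arrays Cxcl1 came closest to the threshold, at 2.57 ± 0.69 (unadjusted p = 0.000966, adjusted p = 0.0639). At 24 h the differences were 2.84 ± 1.24, 1.96 ± 1.14, 2.09 ± 0.92 and 0.41 ± 0.77 (unadjusted p = 0.0302, 0.0978, 0.031 and 0.596). At an unadjusted p under 0.05, 3 of 4 members passed at 6 h and 2 of 4 at 24 h, against 904 and 1266 of 11258 genes. For Cxcl5 the contrast subtracts unstimulated levels not well above background in either genotype, so it is not read as a difference of responses. Unstimulated Cxcl2 was well above background on only 2 of 5 KO and 1 of 5 control arrays.

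Across the 30 arrays Cxcl1 and Cxcl2 ran nearly in parallel, with a Pearson correlation of 0.982 (0.98 over 28 arrays). Cxcl3 followed both, at 0.931 with Cxcl1 and 0.944 with Cxcl2. Cxcl5 was less alike, at 0.661 with Cxcl1, 0.703 with Cxcl2 and 0.794 with Cxcl3. These are descriptions without a test, since the arrays share groups and slides. At 6 h the KO arrays held the highest Cxcl1 levels of the series, 2.83 to 3.75, together with Cxcl5 levels of -2.58 to -2.01, which lay below those of the 4 control arrays at 6 h, -1.74 to -1.45.

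**Figure D4:**
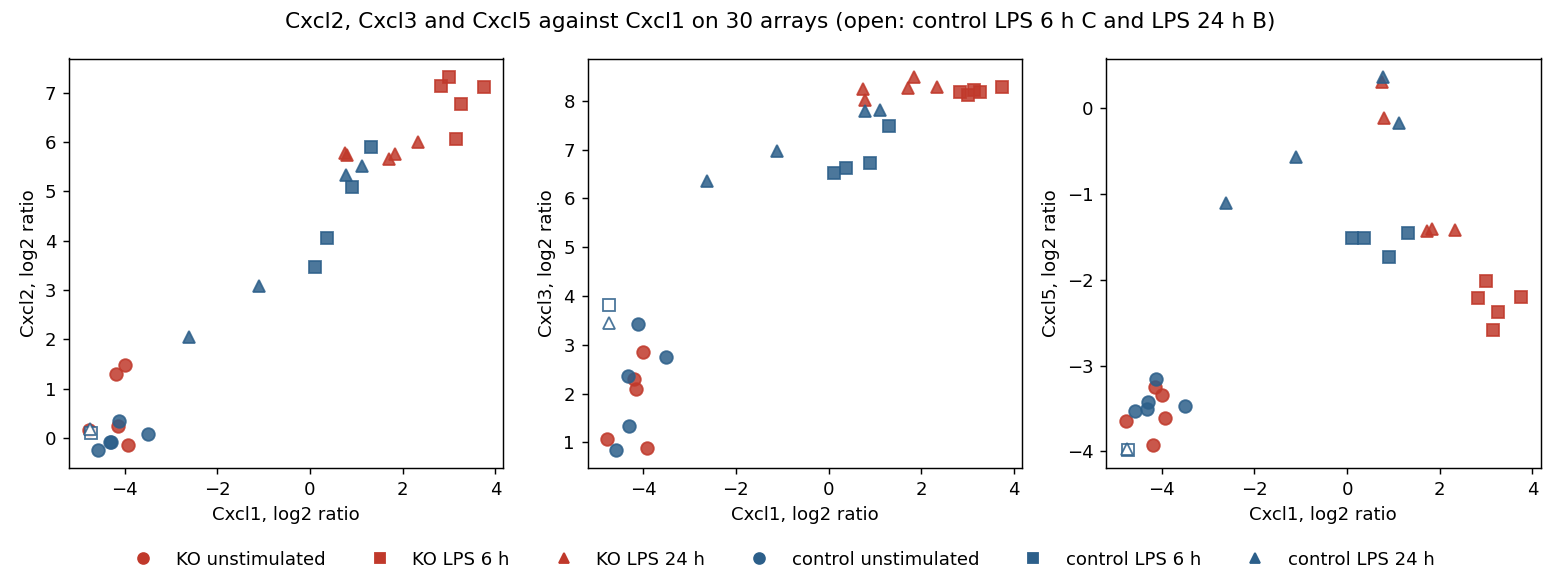
Log2 ratio of Cxcl2, Cxcl3 and Cxcl5 against that of Cxcl1 on 30 arrays, KO in red and control in blue, circles for unstimulated cells, squares for LPS 6 h and triangles for LPS 24 h, with the arrays that stood apart open. Cxcl2 forms a single line with Cxcl1, Cxcl3 levels off near 8, and the KO LPS 6 h squares lie lowest in Cxcl5 among the LPS arrays other than the open ones.

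The genes whose pattern was most like that of a member were taken as the 5 highest Pearson correlations over 30 arrays among the other tested genes. For Cxcl1 these were Igf2bp1 (0.953), Il12a (0.95), Ggct (0.949), Ptgs2 (0.94) and Tpbg (0.935). For Cxcl2 they were Ggct (0.952), Il12a (0.942), Serpinb2 (0.939), Igf2bp1 (0.938) and Fst (0.936). The lists of Cxcl1 and Cxcl2 thus shared Ggct, Il12a, which encodes the p35 subunit of interleukin-12, and Igf2bp1, an RNA-binding protein. For Cxcl3 they were Hdc (0.964), the enzyme that makes histamine, Serpinb2 (0.959), Il1b (0.948), Ggct (0.948) and Tma16 (0.945). For Cxcl5 they were Ly6i (0.929), Ly6c1 (0.909), Selenow (0.907), Procr (0.904) and Zdhhc24 (0.899), none of which was on another member's list. Over 28 arrays 4, 5, 3 and 3 of these 5 stayed among the top 5 for Cxcl1, Cxcl2, Cxcl3 and Cxcl5.

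The signalling route from Tlr4 to NF-kB was read from a list of 30 genes, all tested. Of all tested genes, LPS for 6 h raised 14.2% and lowered 12.4% in KO cells. In control cells it raised 7.15% and lowered 4.49% (14.1% and 11.5% with 28 arrays). Between genotypes 6.24% of all tested genes were higher and 5.88% lower in KO cells at 6 h, and 6.97% and 8.43% at 24 h. LPS for 6 h raised 16 and lowered 1 of them in KO cells, and raised 9 and lowered 1 in control cells (15 and 1 with 28 arrays), with list medians of 0.74 and 0.58 on the log2 scale against 0.03 and 0.01 over all tested genes. Nfkbiz, an atypical IkB protein induced by LPS, rose by 4.40 ± 0.54 in KO cells (adjusted p = 1.34e-06) and by 2.67 ± 0.54 in control cells (adjusted p = 0.00196). Between genotypes at 6 h, 5 genes were higher in KO cells and 0 lower, among them the receptor Tlr4 by 1.42 ± 0.25, the inhibitory kinase-like protein Irak3 by 1.16 ± 0.25 and the adaptor Ticam2 by 1.04 ± 0.25 (adjusted p = 0.000321, 0.00264 and 0.00614). At 24 h 4 were higher and 3 lower, with Tlr4 at 1.08 ± 0.25 and the NF-kB subunit Rel at -1.01 ± 0.30 (adjusted p = 0.00339 and 0.019). With the fixed slide block, Tlr4 at 6 h and Irak3 and Rel at 24 h turned sign and none of these 3 was called. The median over the list was 0.27 at 6 h and -0.09 at 24 h, against -0.01 and -0.005 over all tested genes.

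Of 10 genes for the decay of cytokine messages 9 were tested, and 0 differed between genotypes at any time (limma, 30 or 28 arrays), with 0, 1 and 1 at an unadjusted p under 0.05 at 0, 6 and 24 h with 30 arrays. Over all tested genes 14.1%, 12.1% and 15.4% were called in either direction at these times with 30 arrays, so 0 of 9 is not read as a result about the list. The list medians, KO minus control, were -0.18 in unstimulated cells, 0.04 at 6 h and -0.12 at 24 h. Zc3h12a, an RNase that cuts cytokine messages, was the single gene of the list called after LPS for 6 h, by 2.91 ± 0.43 in KO cells and 2.37 ± 0.43 in control cells (adjusted p = 1.54e-05 and 0.00118).

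Other CXC chemokines and receptors numbered 19, of which 13 were tested. Of all tested genes, 6.24% were called higher and 5.88% lower in KO cells at 6 h, and 6.97% and 8.43% at 24 h. The counts below rest on few genes and are not read as a result about the list. At 6 h 1 was higher and 2 lower in KO cells, namely Cxcl14 by 0.91 ± 0.29 (adjusted p = 0.0415), Ppbp, a neighbour of Cxcl5 that also acts through Cxcr2, at -1.36 ± 0.36 (adjusted p = 0.012, and -0.33 with an adjusted p of 0.748 with the fixed slide block), and Cxcr5, a receptor that guides B cells into follicles, which was well above background on 0 of 5 KO and 4 of 5 control arrays (adjusted p = 0.0419). With the fixed slide block Cxcl14 was not called (0.50, adjusted p = 0.679). Ppbp had the opposite sign from Cxcl1, Cxcl2 and Cxcl3 at that time. At 24 h 2 were higher and 2 lower, with Pf4, which lies beside Ppbp, at 1.59 ± 0.29 (adjusted p = 0.000306) and Cxcr5 at -1.23 ± 0.24 (adjusted p = 0.000677), measured above background on 2 of 5 KO and 5 of 5 control arrays. Under the fixed slide block Pf4 stood at 0.76 (adjusted p = 0.288). Of the receptors that bind the 4 chemokines, Cxcr1 was well above background on 1 of 30 arrays and was not tested. Cxcr2 averaged 0.50 ± 0.45, 0.07 ± 0.18 and 0.16 ± 0.16 in KO cells at 0, 6 and 24 h, against 2.02 ± 1.25, 1.15 ± 1.30 and 1.96 ± 1.34 in control cells (SD, n = 5 each), and was well above background on 3, 0 and 1 of 5 KO arrays and on 5, 3 and 4 of 5 control arrays. Ackr1, a receptor that binds these chemokines without signalling, averaged 0.33 to 0.84 in the 6 groups.

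Cytokines, prostaglandin and leukotriene enzymes that act with neutrophil recruitment numbered 21, of which 19 were tested. Of all tested genes, LPS for 6 h raised 14.2% and lowered 12.4% in KO cells, and raised 7.15% and lowered 4.49% in control cells. Between genotypes 6.24% were higher and 5.88% lower in KO cells at 6 h, and 6.97% and 8.43% at 24 h. The genotype counts below rest on few genes and are not read as a result about the list. LPS for 6 h raised 15 and lowered 3 in KO cells and raised 13 and lowered 3 in control cells, with list medians of 2.88 and 2.45. Tnf rose by 3.34 ± 0.54 and Il1a by 3.58 ± 0.60 in control cells (adjusted p = 0.000455 and 0.000604). Between genotypes at 6 h 2 were higher and 2 lower in KO cells. Csf2, a growth factor for myeloid cells, was well above background on 5 of 5 KO and 1 of 5 control arrays at 6 h and was called higher, by 2.66 ± 0.30 against a control level mostly not above background (adjusted p = 9.78e-07). Ptgs2, the inducible cyclooxygenase, was higher by 2.70 ± 0.69 (adjusted p = 0.00941), or by 1.92 ± 0.45 with 28 arrays (adjusted p = 0.00472), and Alox5, the enzyme that starts leukotriene synthesis, was at -1.07 ± 0.28 (adjusted p = 0.011). At 24 h 3 were higher and 1 lower, with the chemokine Ccl3 at 2.04 ± 0.60, the receptor Il17ra at 0.69 ± 0.17 and Alox5 at -1.25 ± 0.28 (adjusted p = 0.0206, 0.00563 and 0.00276). Ccl3 was not called with 28 arrays (1.79, adjusted p = 0.0538). With the fixed slide block none of Csf2, Ptgs2 and Alox5 was called at 6 h (adjusted p = 0.0921, 0.0536 and 0.0591), nor Ccl3, Il17ra and Alox5 at 24 h (adjusted p = 0.112, 0.761 and 0.573). The list median, KO minus control, was 0.75 at 6 h and 1.14 at 24 h, or 0.27 and 0.52 with 28 arrays.

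Markers of other cells moved with genotype beside the chemokines. Of 14 neutrophil markers 10 were tested, and 0 were higher and 2, 4 and 5 lower in KO cells at 0, 6 and 24 h, where 7.13%, 5.88% and 8.43% of all tested genes were called lower. A marker not above background in KO cells could pass the filter through the control groups alone. Such a marker can hardly be called other than lower in KO cells, so these counts are a description. The mean log2 ratio over the 13 named neutrophil markers ran from 0.65 to 1.58 over the 15 KO arrays and from 1.18 to 2.66 over the 15 control arrays. At 6 h the ranges did not overlap, at 0.76 to 1.40 on KO arrays and 1.51 to 2.26 on control arrays. Mmp9, a granule protease, stood at -1.28 ± 0.23 at 6 h (adjusted p = 0.000423). The granule proteins Ngp and Ltf, also called lower (adjusted p = 0.00325 and 0.00401), were well above background on 0 of 5 KO and 5 of 5 control arrays at 6 h. Elane, the neutrophil elastase, was well above background on 0 of 30 arrays, while S100a8 and S100a9 were on all 30. These marker counts are not read as bearing on the higher Cxcl1, Cxcl2 and Cxcl3 of the KO samples at 6 h. The part of other cells in the result was not tested.

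Of all tested genes, 7.13%, 5.88% and 8.43% were called lower and 6.95%, 6.24% and 6.97% higher in KO cells at 0, 6 and 24 h. Of 11 dendritic cell markers 9 were tested, and 5, 5 and 3 were lower and 0 higher at these times. The counts in the macrophage, stromal and mast cell lists below rest on few genes and are not read as results about those lists. Among the lower dendritic cell markers at 6 h were Dpp4 at -1.89 ± 0.41 and Ciita, the switch of MHC class II genes, at -1.38 ± 0.33 (limma, adjusted p = 0.00231 and 0.00557). Neither was called at 6 h with the fixed slide block, at -2.33 for Dpp4 and -0.33 for Ciita (adjusted p = 0.156 and 0.727). Their mean over 11 named markers was 1.20 to 2.70 on KO arrays and 2.43 to 3.22 on control arrays. Among macrophage and monocyte markers, 14 in all with 10 tested, 2, 0 and 1 were higher in KO cells at 0, 6 and 24 h, and 1 was lower each time. Marco at 2.28 ± 0.43 and Cd14 at 1.85 ± 0.62 were higher in unstimulated cells (adjusted p = 0.00055 and 0.0461). Cd14 was higher at 24 h, at 1.83 ± 0.62 (adjusted p = 0.0457), but not with 28 arrays (0.998, adjusted p = 0.129) or the fixed slide block (-1.11, adjusted p = 0.45). At 6 h Cd14 was called with 28 arrays, at 1.43 ± 0.43 (adjusted p = 0.0238), and not with 30. The lower gene was Ccr2, at -4.09 ± 0.53 at 6 h (adjusted p = 8.59e-06). The mean over 12 named markers was 1.62 to 3.00 on KO and 1.40 to 3.00 on control arrays. Stromal and endothelial markers had a mean of -2.82 to -2.11 on KO and -3.24 to -1.86 on control arrays, with 1 of 8 tested higher and 1 lower in KO cells at 6 h. Mast cell and basophil markers had 0 of 5 tested called at 6 h. At 24 h 1 of 5 was lower in KO cells, Prss34, a basophil protease, at -0.81 ± 0.24 (adjusted p = 0.0217), or -0.45 ± 0.14 with 28 arrays (adjusted p = 0.0286). Control LPS 24 h replicate 2, which stood apart, had a mean over the 8 markers of 1.08, against 0.17 to 0.42 on the other 4 arrays of its group.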

How the data were processed

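The measurements are 30 Agilent 2-colour arrays, with the sample in Cy5 and a universal mouse reference RNA in Cy3, with no dye swap. Per the file headers, the deposited scanner files were made with Feature Extraction 10.7.3.1 and hold mean and background intensity per spot and a log10 ratio of red over green. The deposited value table holds log2 ratios, and per the submitters' processing notes limma was used. It correlated at 0.99988 to 0.999998 with the values computed here.

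From the intensities, background was corrected by normexp with an offset of 50 and ratios were normalised by loess within each array (limma 3.58.1, R 4.3.3), without the 1639 control spots. Probes were named through their transcript and the RefSeq gene table (GRCm38.p6), which held 49997 genes. The brightest Cy5 probe stood for a gene, and it was tested if well above background on all arrays of at least 1 group, 11258 in all. All 30 arrays entered 1 limma fit of 6 group means with 24 residual degrees of freedom. The Benjamini-Hochberg adjustment ran over all tested genes, and a call means an adjusted p below 0.05. Overlap between groups was read gene by gene for the members and Irf4 only, so its share over all genes is not given. For 25 genes a spot was missing on some array, and those arrays were dropped for that gene; no member was among them. Depth has no count on arrays. The fit was tested on simulated data.

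The members and gene lists were chosen with earlier results of these data known. Named beside the members are Irf4, the receptors of the 4 chemokines, up to 3 called genes with the smallest adjusted p per list and comparison, and the 5 genes most like each member. Of those, some are left unnamed for brevity. Same-numbered arrays deviated together in every pair, by a correlation above 0.1, in 3 comparisons: KO LPS 6 h against unstimulated (0.109 to 0.657), KO LPS 24 h against 6 h (0.792 to 0.875) and control LPS 24 h against unstimulated (0.178 to 0.732). The pairing rests on these deviations, since the labels do not say what a number shares. In KO minus control after LPS, only the pairs with an array that stood apart fell short of 0.1. At 6 h replicate 3 had -0.112 and the others 0.401 to 0.71. At 24 h replicate 2 had 0.0588 and the others 0.461 to 0.724. In control LPS 6 h against unstimulated, replicate 3 had 0.0829 and the others 0.392 to 0.809. Alternatives were the 28 arrays, Agilent's log ratios, median centring, Cy5 alone, the deposited table, no filter, the mean of probes, only the groups compared, the replicate block, the slide block and each array left out. The slide as a random block, and the fixed slide block with 28 arrays, were chosen after seeing the data.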

Additional observations from a re-analysis of the deposited data

Results flagged for a closer look

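Of 24 groups of 5 arrays (4 members in 6 groups), 4 held an array whose gap to its nearest neighbour exceeded 0.71 of the group's range, where chance gives about 1 in 20. Replicate 3 of control LPS 6 h was such an array for Cxcl1, at -4.73 (share of the range 0.801), for Cxcl3, at 3.82 (0.739), and for Cxcl5, at -3.98 (0.886). It is 1 of the arrays that stood apart, and its values lie in or near the unstimulated range. The fourth was Cxcl5 in replicate 4 of unstimulated control cells, at -3.16 (0.741), a probe that was not well above background on that array.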

How the results depend on the processing

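The members' values were recomputed under the listed alternatives, and the cause of the changes below was not tested. Of called member results, recomputed without leaving out a single array, 192 kept direction and call, 16 lost the call and 6 turned sign. With the slide block, KO minus control became -0.072 for Cxcl1, -1.03 for Cxcl2 and -0.44 for Cxcl3 at 6 h (-1.43, -2.48 and -0.64 with 28 arrays, where Cxcl2 was called lower), and -3.03 for Cxcl2 in unstimulated cells (-4.49 with 28 arrays). It also turned KO 24 h minus 6 h to 1.22 for Cxcl1 and 3.35 for Cxcl2, control 24 h minus 6 h to -0.62 for Cxcl3, and KO minus control to -0.48 for Tlr4 and 0.26 for Cxcr5 at 6 h, and to 0.55 for Alox5, -1.11 for Cd14, -0.53 for Irak3, 0.62 for Ltf, 0.31 for Mmp9, -0.77 for Pdgfrb and 0.57 for Rel at 24 h. Agilent's log ratios gave -0.031 and -0.29 for Cxcl3 (24 h minus 6 h, KO and control) and 0.19 for Cxcl5 (difference of 6 h responses), and Cy5 alone gave 0.12 for Cxcl1 (KO minus control, unstimulated). With 28 arrays Cxcl5 became -0.44 (KO minus control, 24 h) and -0.31 (difference of 24 h responses).

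Leaving out 1 array at a time gave, for KO minus control, -0.15 to 0.12 for Cxcl1 and -0.63 to 0.014 for Cxcl3 in unstimulated cells and -0.44 to 0.64 for Cxcl5 at 24 h. For control 24 h minus 6 h it gave -1.40 to 0.27 for Cxcl2 and -0.36 to 1.00 for Cxcl3, and for the difference of responses -0.59 to 0.044 at 6 h and -0.31 to 0.78 at 24 h for Cxcl5. None of these was called with all arrays.

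The number of members called in KO minus control at 24 h was 2, and 0 with Agilent's log ratios or only the groups compared, and 0 to 3 when 1 array was left out. At 6 h it was 3, and 1 with Agilent's log ratios, 0 with only the groups compared and 1 with the slide block (Cxcl5, lower in KO cells; 2 lower with 28 arrays, Cxcl2 and Cxcl5). In unstimulated cells it was 0, and 4 with the slide block, all lower (3 with 28 arrays), where the 4 include Cxcl5, not well above background in either genotype. For KO 24 h minus 6 h it was 0, and 1 with Cy5 alone or median centring, 3 with only the groups compared or the slide block, 2 with 28 arrays and 1 with the replicate block (Cxcl5, adjusted p = 0.0397). For control 24 h minus 6 h it was 0, and 2 with the slide block, 1 with 28 arrays and 0 to 1 when 1 array was left out. For control LPS against unstimulated, only the groups compared gave 1 at 6 h and 2 at 24 h. The slide block gave 3 for the difference of 24 h responses. These slide block counts are not set against the share of all genes called in the same fit. Over the alternatives, up to 5696 genes were called in KO minus control, unstimulated. Up to 5839 were called in KO 24 h minus 6 h, and up to 6028 in the difference of 24 h responses. The slide block counts in these comparisons are therefore not read as a result about the members. The replicate block also called Cxcl3 at 24 h in KO minus control (adjusted p = 0.0163) and Cxcl5 at 6 h in control LPS (adjusted p = 0.0446). In these comparisons same-numbered arrays deviated together except in the pair with an array that stood apart.

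Calls over all genes also moved: KO minus control had 1585 in unstimulated cells (935 to 5696 over the alternatives), 1364 at 6 h (726 to 2732) and 1734 at 24 h (998 to 5068). LPS at 6 h had 2996 in KO cells (893 to 4774) and 1311 in control cells (66 to 3872), and at 24 h 2042 (1098 to 6228) and 1384 (638 to 4714). LPS 24 h against 6 h had 872 in KO (373 to 5839) and 617 in control cells (75 to 1570), and the differences of responses 49 at 6 h (35 to 154) and 99 at 24 h (20 to 6028). Signal over background limits Cxcl5 in unstimulated cells, and Cxcl2 there in part, and with them their differences of responses.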
